A study of Arabidopsis thaliana with 20 samples.

Results

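The transcripts described here are those that were lost most rapidly from cultured Arabidopsis thaliana cells at 22 °C once RNA synthesis was blocked. They comprise 113 probe sets of the 22810 on the ATH1 array. A probe set was included when its intensity at 22 °C was at least 61.4 without inhibitor, at least 2 log2 units lower after 0.5 h of the inhibitor cordycepin (at most 25% left), and still at least 1 log2 unit lower after 4 h (at most 50% left). In all, 118 probe sets met these limits, and 5 of them (STZ, AT4G10270, AT5G63130, AT5G66985 and AT5G20790) were left out by name. The 113 were selected on the 0, 0.5 and 4 h arrays at 22 °C, so their values at 22 °C are a description and were not tested.

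The cells were T87, a suspension culture line of the Columbia (Col-0) ecotype, taken 7 days after subculture. Control cells stayed at 22 °C under constant light of 80 µmol per square metre per second, and cold-treated cells were moved to 4 °C under dim light of 40 µmol. RNA was taken at 0, 0.5, 2 and 4 h of cordycepin at 22 °C, and at 0, 4, 8 and 12 h of cordycepin begun after 6, 12, 24 or 36 h in the cold. Each of these 20 conditions was measured on 1 array. The titles and the design text give a cold time of 6 h, while the growth protocol lists 12, 24 and 36 h. The cold arrays therefore differed from the control arrays in temperature and in light, which cannot be told apart, and cold duration ran together with time in culture. All cells belonged to 1 line, and separate cultures behind the arrays were not stated. Of the tissue markers chosen to check the label, only the root peroxidase AT4G21960 was named on the array, at a log2 intensity of 9.13 to 10.6 with a median of 9.45.

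Cellular mRNA is usually degraded after shortening of its poly(A) tail, by removal of the cap and digestion from the 5′ end or by digestion from the 3′ end. Cordycepin is an adenosine analogue that ends RNA chains and blocks polyadenylation, so what remains of a transcript afterwards reflects its loss. In plants the shortest-lived mRNAs include many that encode regulators, such as transcription factors, ubiquitin ligases and signalling peptides, whose amounts can then follow changes in transcription within minutes.

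The platform table assigned 1 gene to 49 of the 113 probe sets, several genes to 1 (AT1G59218 and AT1G58848) and none to 63. The 49 represented 48 genes, because the mitochondrial gene nad1 was measured by a pair of them. Of these probe sets, 45 matched the RefSeq annotation of assembly TAIR10.1 by gene number and 3 by organelle gene name, and ccb452 was not matched. AT2G04460 and AT4G08220 are annotated there as pseudogenes. Many members carry only a locus identifier in the tables used, and no function is given for those. On the whole array 13513 probe sets had 1 gene, 503 several and 8794 none.

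At 22 °C the median member had 18.4% of its starting intensity left after 0.5 h of cordycepin, 14.3% after 2 h and 15.5% after 4 h. The range was 1.51 to 25.0% at 0.5 h, 2.25 to 42.0% at 2 h and 3.86 to 49.8% at 4 h. Over the 11554 probe sets that reached the same starting intensity, the median stood at 104.6%, 92.4% and 84.2%. These percentages are relative to each array's normalised distribution, so 100% means an intensity that moved with the bulk of the array and not a constant amount of RNA. In bulk cultures, fewer cells holding a transcript and less of it per cell cannot be told apart.

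Most of the difference was present at the first time point. The limits favour this, since they asked for a loss of 2 log2 units at 0.5 h but of 1 at 4 h. The later moves below were not counted over all probe sets, so they describe the chosen members only. Between 0.5 and 2 h, 91 members moved by less than 1 log2 unit, 19 were lower by at least that much and 3 were higher. Between 0.5 and 4 h, 80 stayed within 1 log2 unit, 20 were lower and 13 were higher. At or below the array's lower quartile (an intensity of 16.7 at 0.5 h) were 3 members at 0.5 h and 15 at 2 or 4 h. Others lay not far above it at 0.5 h, such as AT4G27652 at 18.1 and AT2G07749 at 21.6. The floor of the assay may therefore limit more values than these counts hold. The starting log2 intensity ran from 6.17 to 12.20 with a median of 8.39, so the members were spread over weak and strong signals.

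**Figure D1:**
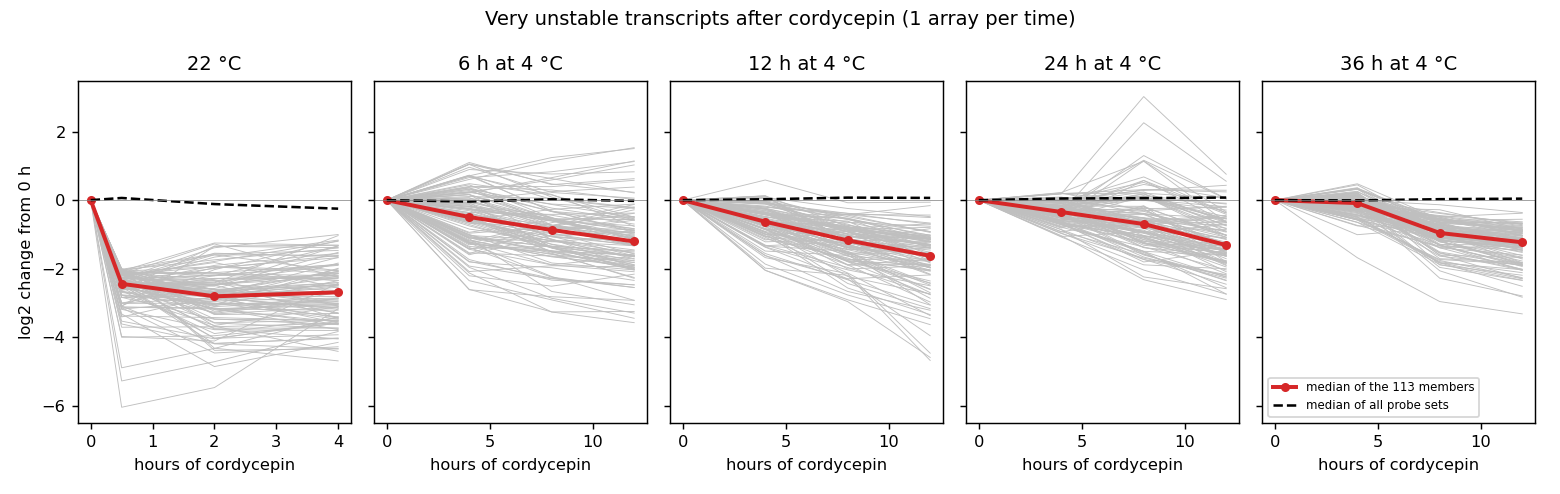
Log2 change from the 0 h intensity against hours of cordycepin for each member, in the 22 °C series and the 4 cold series. Heavier lines join the members' median and the median of all probe sets. The latter are those at or above the minimum intensity at 22 °C and all those tested in the cold. At 22 °C the members' median was at 18.4% after 0.5 h, while in the cold it was between 32.4 and 43.3% after 12 h.

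Transcription regulators among the members included WRKY22, AT5G61590 (DEWAX) and HAT2. WRKY22 is a WRKY factor of immune signalling, and had log2 intensities of 7.62, 5.46, 4.04 and 4.11 at 0, 0.5, 2 and 4 h at 22 °C. It therefore had 22.3% left at 0.5 h and a further loss to 8.36% at 2 h. AT5G61590, known as DEWAX, represses cuticular wax synthesis, and its log2 intensity went from 6.99 to 4.44, 4.53 and 4.85. HAT2, an auxin-responsive homeodomain leucine zipper factor that was chosen after its values were seen, went from 9.75 to 7.67, 8.15 and 7.68. In both of the latter the 0.5 h value was already within 1 log2 unit of the later ones.

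PUB23, a U-box ubiquitin ligase that dampens stress and immune responses, read 9.14, 6.93, 6.53 and 6.12 at 22 °C, which left 21.5, 16.3 and 12.3%. RALFL33 encodes a small secreted peptide of the RALF family, which signals at the cell surface, and was among the strongest signals of the named members. It read 11.10, 9.07, 8.26 and 8.60, leaving 24.5, 14.0 and 17.6%. ARL, an ARGOS-like gene that acts in organ growth and was also chosen after its values were seen, read 8.97, 6.56, 7.30 and 7.80. ARL was thus one of the members whose relative intensity at 4 h was more than 1 log2 unit above that at 0.5 h.

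The brightest member was the annotated pseudogene AT2G04460. Its log2 intensities at 22 °C were 12.20, 10.18, 8.52 and 7.78, so its relative intensity was lower at each later time, with 24.5, 7.79 and 4.68% left. AT2G37470 also went on losing signal after the first time point, with 24.8% left at 0.5 h and 4.78% at 2 h. In contrast, AT2G14460 had 8.15% left at 0.5 h and 5.47% at 2 h, and AT2G24550 had 12.5% and 13.8%. The first pair thus went on losing relative intensity between 0.5 and 2 h, whereas the second pair moved little. For AT2G14460 this is limited by the floor. Its intensities were 22.3 at 0.5 h and 15.0 at 2 h, near the lower quartile of 16.7 on the 0.5 h array, so little further loss could be measured. AT2G24550 was higher, at 70.2 and 77.6.

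Several members lay close to the limit of 2 log2 units. Just inside were AT2G39870 and AT2G37470, both with a change of −2.01, and AT1G24530 with −2.02. Just outside were WRKY53 with −1.99, AT3G22530 with −1.98 and AT5G44150 with −1.98. All 6 were also at least 1 log2 unit lower at 4 h, and their changes at 0.5 h were nearly the same on either side of the limit.

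The cold arrays played no part in the choice of members and allowed a test. A line of log2 intensity against hours of cordycepin was fitted to each of the 4 cold series with limma, using the 16 cold arrays and 12425 probe sets of sufficient intensity. The slope of such a line is the change of relative log2 intensity per hour. Of the 113 members, 110 were intense enough to be tested, and AT5G07580, AT4G39675 and AT1G80450 were not. Averaged over the 4 cold series, the slope was below 0 for 105 of the 110 members at an adjusted p under 0.05, against 21.3% of all probe sets tested, and 0 members rose, against 30.1%. All 110 estimates were negative, from −0.238 to −0.0194 per hour. These slopes are relative to the bulk of the array, and the background moves with the scaling. Centred on reference genes, 107 of 111 tested members fell, against 28.9% of all probe sets, and 14.5% of all rose. With slopes taken relative to the 95th percentile of their own series (anchored slopes), all 110 fell, but so did 94.8% of all probe sets, so that count no longer sets the members apart.

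The members' median mean cold slope was −0.117 log2 units per hour, and that of all probe sets tested was 0.00522. By this measure 95 of the 110 members were among the most negative 5% of the probe sets tested and 108 among the most negative 10%. The slopes were negative in all 4 cold series for 88 members, compared with 16.7% of all probe sets. Of the 63 members with no assigned gene, 62 fell, with a median slope of −0.122, and of the 46 tested members with 1 gene 42 fell, with a median of −0.111. Rapid loss at 22 °C was thus accompanied by a relative loss in the cold in nearly every member.

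**Figure D2:**
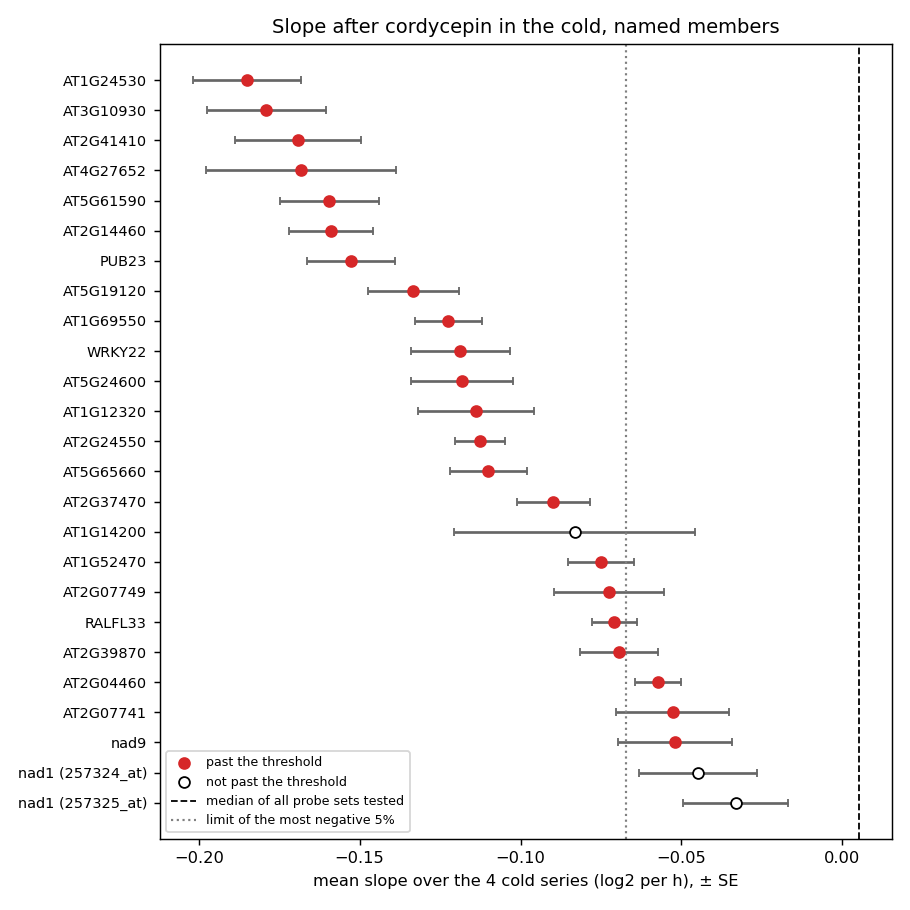
Mean cold slope (log2 units per hour of cordycepin, ± SE) of the named members with a fit. Lines mark the median of all 12425 probe sets tested and the limit of the most negative 5%. Over all tested members the median of −0.117 lies below that limit of −0.0671.

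The 5 members not called were 246075_at, AT4G27657, AT1G14200 and both nad1 probe sets. Their slopes ran from −0.0954 ± 0.0418 (SE) for AT4G27657, with limma's adjusted p at 0.0723, to −0.0194 ± 0.0103 for 246075_at, with an adjusted p of 0.131. The steepest cold slope was that of 246987_at, a probe set with no assigned gene, at −0.238 ± 0.0145 and an adjusted p of 9.39e-07 by limma. Of its 0 h intensity in the cold, 26.5% was left after 12 h of cordycepin in the series begun at 6 h, 9.85% at 12 h, 14.9% at 24 h and 14.0% at 36 h. At 22 °C it had 14.0% left after 0.5 h, so a similar loss took 0.5 h at 22 °C and 12 h in several of the cold series.

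Among the named members, the most negative mean slopes belonged to AT1G24530 (−0.185 ± 0.0167, limma adjusted p 5.91e-06), AT3G10930 (−0.179 ± 0.0186, 1.70e-05), AT2G41410 (−0.169 ± 0.0196, 3.67e-05), AT4G27652 (−0.168 ± 0.0295, 0.000645) and AT5G61590 (−0.159 ± 0.0154, 9.63e-06). AT1G24530 read 9.10, 9.46, 8.37 and 7.97 at 0, 4, 8 and 12 h of cordycepin after 6 h of cold, and 10.32, 9.73, 8.52 and 7.90 after 12 h. It read 10.26, 9.23, 7.94 and 7.36 after 24 h of cold, and 9.20, 9.24, 7.59 and 7.52 after 36 h. In the 6 and 36 h series its level at 4 h of cordycepin was as high as at 0 h, and the loss came between 4 and 8 h.

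AT2G41410 showed a similar delay. It read 10.80, 11.84, 10.89 and 10.21 after 6 h of cold and 12.08, 11.51, 10.55 and 9.64 after 12 h. After 24 h it read 11.26, 10.61, 9.76 and 9.01, and after 36 h 11.70, 11.74, 10.10 and 9.41. The 6 and 36 h series had their highest value at 4 h of cordycepin, at 206 and 103% of the 0 h intensity. AT5G61590 differed from both in that the series begun after 6 h of cold had only 28.9% left at 4 h, compared with 78.2, 64.3 and 89.1% in the later series.

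PUB23 fell with a mean slope of −0.153 ± 0.0137 (limma adjusted p 5.65e-06). It read 9.26, 9.33, 8.53 and 8.06 after 6 h of cold, and 10.37, 9.43, 8.59 and 8.01 after 12 h. It read 9.38, 8.59, 8.01 and 7.34 after 24 h of cold, and 9.05, 9.41, 8.00 and 7.72 after 36 h. Each series fell on its own, and the 12 h series had both the highest starting level and the steepest slope (−0.198). RALFL33 had a shallower mean slope of −0.0709 ± 0.00694 (adjusted p 1.10e-05 by limma), and its 6 h series, with 84.8% left at 12 h of cordycepin, was not called. The 12, 24 and 36 h series of RALFL33 had 46.5, 47.2 and 56.0% left at that time and fell. HAT2 fell with −0.133 ± 0.0187 (adjusted p 0.000146 by limma), and ARL with −0.104 ± 0.0100 (9.52e-06).

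The loss in the cold was slow on the time scale used at 22 °C. After 4 h of cordycepin, the time measured at both temperatures, the median member had 15.5% left at 22 °C but 71.1, 64.6, 78.7 and 94.3% left after 6, 12, 24 and 36 h of cold. Because the 22 °C values chose the members, these values are set side by side without a test. At 12 h of cordycepin the median member in the cold had 43.3, 32.4, 40.3 and 42.6% left, while the median of all probe sets tested lay between 98.5 and 105.4%. The members' median was below that of all probe sets at each time after cordycepin in each of the 4 cold series.

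The number of members that were at least 2-fold lower after 4 h was 38 for cells cooled for 6 h (0.958% of all probe sets), 22 for 12 h (1.84%), 3 for 24 h (0.177%) and 2 for 36 h (0.0483%). In the 36 h series, 40 members had a higher intensity at 4 h than at 0 h, as had 47.9% of all probe sets. At 12 h of cordycepin, 21, 32, 17 and 16 members were at least 4-fold lower in the 4 series, against 0.523, 1.46, 0.362 and 0.394% of all probe sets tested. The first 4 h after 36 h of cold thus held little of the members' loss, which lay between 4 and 12 h. Each of these counts rests on a single pair of arrays.

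Taken one by one, the cold series gave 72 members that fell after 6 h of cold (11.3% of all probe sets), 97 after 12 h (15.4%), 69 after 24 h (8.63%) and 85 after 36 h (7.28%). Of the members, 42 fell in all 4 series, 36 in 3, 18 in 2, 11 in 1 and 3 in none. No such split was counted over all probe sets. The median slopes were −0.109, −0.138, −0.104 and −0.114 log2 units per hour in that order. These counts depended on the first and last array of a series. Without the 0 h array they were 41, 23, 7 and 48, against 410, 93, 26 and 284 of all 12425 probe sets. Without the 12 h array they were 42, 63, 14 and 2, against 262, 768, 78 and 10. The calls thus dropped over all probe sets as well. The count on the mean slope changed less, with 101 to 109 members falling whichever of the 16 arrays was left out.

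In the 6 h series 5 members rose, where 11.1% of all probe sets did. They were AT1G52470 and 4 probe sets with no assigned gene, among them 246075_at, which read 7.37, 7.58, 8.03 and 8.52 at 0, 4, 8 and 12 h. AT1G52470 had log2 intensities of 9.54, 9.77, 10.13 and 10.56 in that series, and 11.10, 9.62, 9.49 and 8.51 after 12 h of cold. It read 9.49, 9.28, 8.97 and 8.59 after 24 h of cold, and 8.84, 8.29, 7.67 and 7.55 after 36 h. At 22 °C the same transcript had 8.63% left after 0.5 h, so it was among the fastest lost in the control and 204% of its starting intensity after 12 h of cordycepin in the earliest cold series. Without the 12 h array of that series, 0 members rose, against 489 of all 12425 probe sets.

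Whether the slopes differed among the 4 cold series was tested with limma's F test. It called 21 of 110 members (19.1%), against 12.8% of all probe sets. The slope was steepest in the 12 h series for 16 of the 21 and least steep in the 6 h series for 16. That order was not counted for all probe sets called, so it cannot be said to be particular to the members. The named ones were AT5G24600, AT5G19120, AT5G01210, WRKY22, AT1G52470 and AT2G04460. The count was 12 without the 12 h array of the 6 h series, or without the 0 h array of the 12 h or of the 24 h series. Over all 12425 probe sets these omissions gave 513, 459 and 607 calls. Without the 4 h array of the 6 h series, 35 members and 2124 of all probe sets were called. When no 0 h array was used the count was 0, for the members and for all probe sets. With anchored slopes it was 35, against 35.5% of all probe sets.

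Of these named members, AT5G19120 had the widest range of slopes. It read 7.57, 8.67, 8.02 and 8.20 after 6 h of cold, and 10.01, 7.96, 7.05 and 5.42 after 12 h. The 24 h series read 7.64, 7.14, 6.67 and 6.15, and the 36 h series 7.10, 6.84, 6.53 and 6.23. The slopes were 0.03, −0.37, −0.12 and −0.07 per hour (F test, limma adjusted p 0.00192), and the 12 h series also started from the highest level. AT1G52470, described above, had slopes of 0.09, −0.20, −0.08 and −0.11 (adjusted p 0.00192 by limma).

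AT2G04460, the pseudogene, likewise had its steepest slope after 12 h of cold and its least steep after 6 h, with slopes of 0.03, −0.14, −0.05 and −0.07 (F test, limma adjusted p 0.00414), as did AT5G24600 with 0.00, −0.21, −0.14 and −0.13 (0.0364). In WRKY22 these ends were exchanged. It read 7.60, 6.35, 5.37 and 4.67 after 6 h of cold, and 5.78, 6.37, 5.70 and 5.72 after 12 h. It read 6.37, 5.44, 5.83 and 4.88 after 24 h of cold, and 6.46, 6.59, 5.78 and 5.29 after 36 h. Its slope was steepest after 6 h of cold (−0.24) and shallowest after 12 h (−0.02) (adjusted p 0.0279 by limma), and its mean cold slope was −0.119 ± 0.0155 (adjusted p 8.60e-05). AT5G01210 too had its shallowest slope after 12 h of cold (−0.04).

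**Figure D3:**
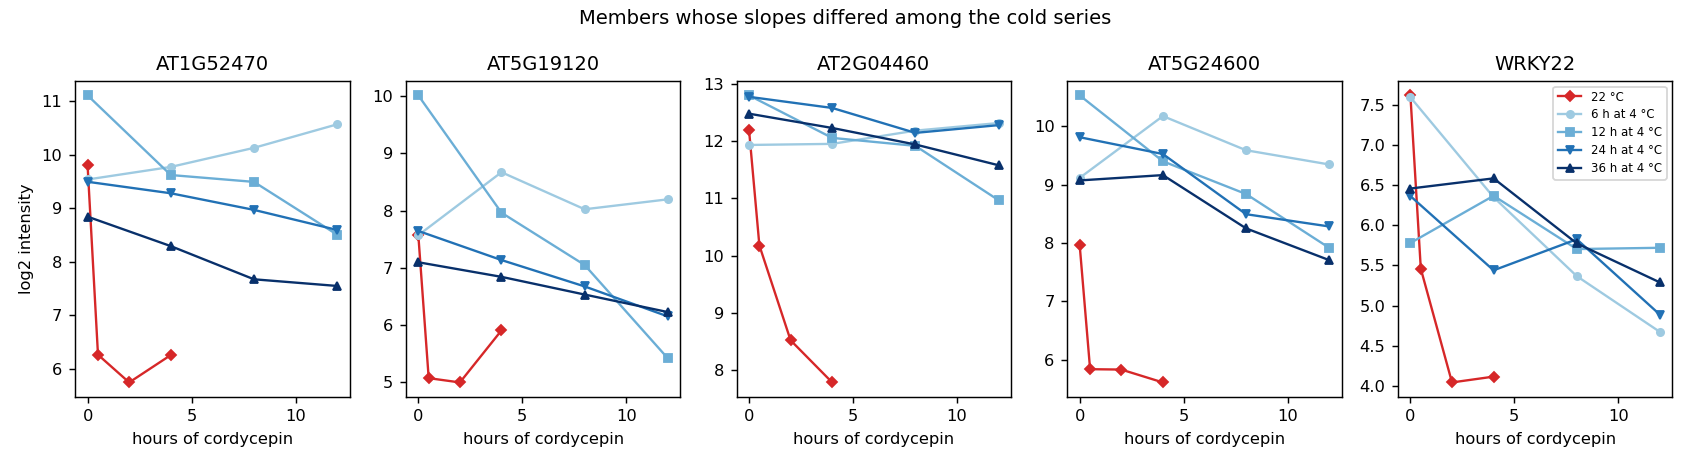
Log2 intensity against hours of cordycepin in the 4 cold series for the named members whose cold slopes differed by limma's F test; each point is 1 array. AT5G19120 went from 10.01 to 5.42 after 12 h of cold but from 7.57 to 8.20 after 6 h, while WRKY22 fell most in the 6 h series.

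A straight change of the slope with cold duration was called for 0 members by limma. Over all probe sets 0.00805% had slopes that increased and 0.386% slopes that decreased with cold duration. At an unadjusted p under 0.05 there were 16 members, 7 with increasing and 9 with decreasing slopes, compared with 13.3% of all probe sets, and the lowest adjusted p was 0.0955. With the slopes anchored as above, 11 members were called, 9 increasing and 2 decreasing, against 21.4% and 1.12% of all probe sets.

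Among the members were probe sets for genes of the mitochondrial genome. In plant mitochondria nad1 and nad9 encode subunits of respiratory complex I, and ccb452 is a gene of cytochrome c maturation. At 22 °C nad1 read 9.47, 5.75, 5.77 and 5.87 by 257324_at and 8.99, 6.48, 5.82 and 5.94 by 257325_at, and nad9 read 8.49, 5.82, 5.58 and 6.34. Most of the relative loss was thus seen at the first time point, with 7.63, 17.6 and 15.7% left.

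At 4 °C, nad9 read 8.93, 7.73, 8.27 and 8.81 after 6 h of cold, and 8.71, 7.70, 7.79 and 7.36 after 12 h. It read 7.94, 7.88, 7.98 and 7.85 after 24 h of cold, and 8.24, 7.95, 7.10 and 7.07 after 36 h. In the 6 h series it dipped to 43.5% at 4 h and was back at 91.7% at 12 h, and in the 24 h series it hardly moved. nad1 by 257324_at read 9.30, 7.99, 8.43 and 8.77 after 6 h of cold and 7.93, 7.96, 8.22 and 8.37 after 24 h, the same pair of courses. A straight line describes such a course poorly. The mean cold slope was −0.052 ± 0.0178 for nad9 (adjusted p 0.027 by limma), −0.045 ± 0.0183 for 257324_at (0.0555) and −0.0331 ± 0.0163 for 257325_at (0.104), and ccb452 fell with −0.0688 ± 0.0127 (0.000907).

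AT2G07741 and AT2G07749 followed a like course. AT2G07741 read 11.06, 9.62, 10.13 and 10.47 in the 6 h series, and AT2G07749 read 8.37, 6.77, 7.34 and 7.43. Both were lowest at 4 h and higher again at 8 and 12 h. Their mean cold slopes were −0.0528 ± 0.0175 (adjusted p 0.0238 by limma) and −0.0724 ± 0.0171 (0.00404).

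A list of 11 tested probe sets for mitochondrion-encoded genes was added after the members were seen and does not hold ccb452, which was not matched to TAIR10.1. In it 2 probe sets, nad9 and cox2, fell in the cold and 0 rose, with a median slope of −0.0248. Their median change after 0.5 h at 22 °C was −1.60 log2 units, but it ranged widely, with −1.94 for nad4L, −1.19 for cox2 and −0.15 for nad4. The probe sets of a single gene also disagreed. Besides the 2 members, nad1 was measured by 257321_at, with a change of −0.64, and by 257323_at, with −1.60. nad1 mRNA is assembled from separately transcribed pieces in plant mitochondria, and which piece each probe set reports was not analysed here.

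AT4G27652 and AT4G27657 lie close together on the chromosome, with only AT4G27654 between them in TAIR10.1. AT4G27657 falls outside the rule by which genes were named and is given for this reason. At 22 °C AT4G27652 read 7.37, 4.18, 3.58 and 3.56, and AT4G27657 6.24, 3.94, 4.05 and 3.90. After 6 h of cold, before cordycepin, they read 10.32 and 10.09, which was well above the control for both.

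The pair also shared an excursion after 24 h of cold. There AT4G27652 read 6.95, 7.18, 8.09 and 6.31 at 0, 4, 8 and 12 h of cordycepin, and AT4G27657 read 5.16, 5.34, 8.19 and 5.92. AT1G14200 did the same with 5.90, 5.56, 8.17 and 6.46. In total 6 of the 110 tested members (AT4G27657, AT1G14200 and 4 with no assigned gene) were at least 2-fold above both neighbouring times on that 8 h array, compared with 0.298% of all probe sets. The value stands on 1 array and was not replicated.

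**Figure D4:**
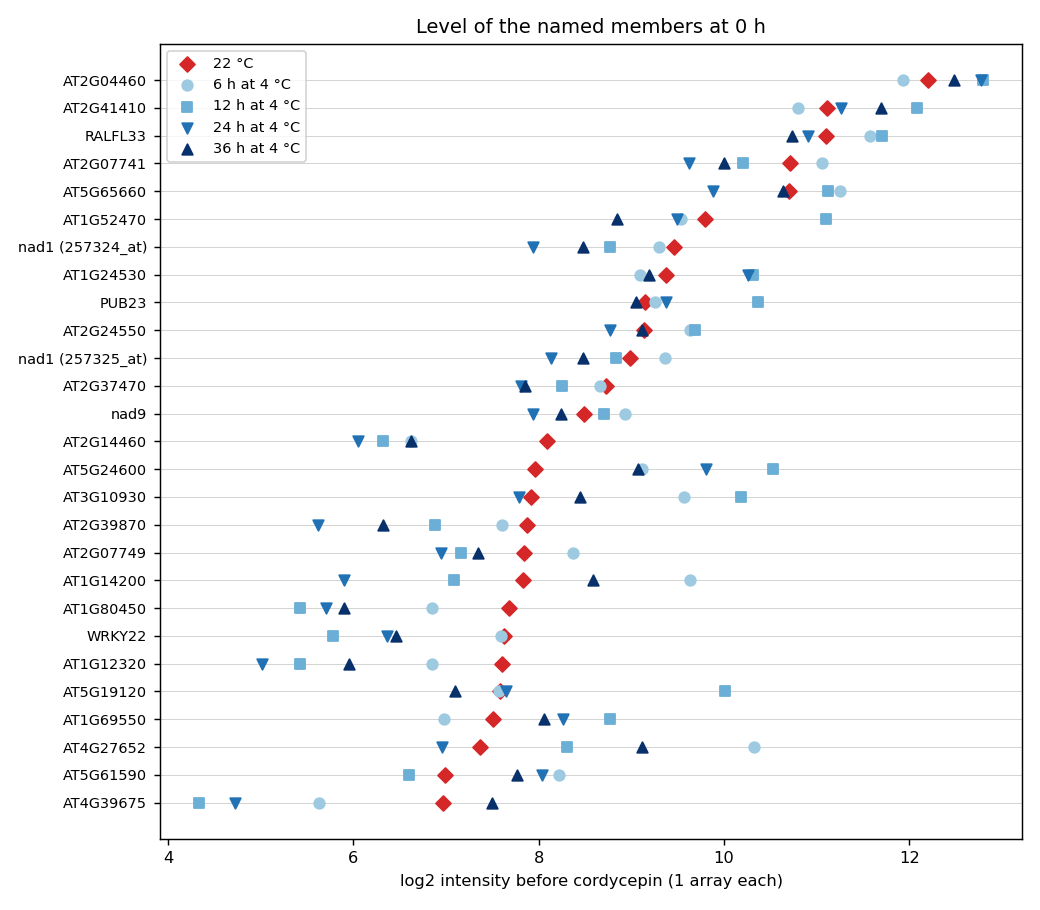
Log2 intensity before cordycepin at 22 °C and after 6, 12, 24 and 36 h of cold for the members named by rule, 1 array per condition. Over all members the median difference from 22 °C stayed between −0.29 and 0.19, while single members moved up or down by more than 1.

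Before cordycepin the members as a group kept about their control level in the cold. The median difference from 22 °C was −0.02, 0.19, −0.29 and −0.15 log2 units after 6, 12, 24 and 36 h, and over all probe sets tested −0.03, −0.10, −0.11 and −0.08. Single members moved in both directions: 19, 30, 22 and 18 were at least 2-fold higher (3.68, 8.97, 10.3 and 7.88% of all) and 10, 17, 22 and 17 at least 2-fold lower (0.628, 2.62, 5.29 and 2.88% of all). These differences use the 22 °C array that chose the members and were not tested.

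In all 4 cold series 10 members were at least 2-fold above the control, as were 2.08% of all probe sets tested. The named ones were AT5G24600, with 7.96 at 22 °C and 9.11, 10.53, 9.81 and 9.07 in the cold, and AT5G13200, with 7.44 and then 9.14, 9.15, 8.67 and 9.30. Both were singled out after their values were seen. At least 2-fold lower in all 4 were 4 members, and 0.225% of all probe sets. Of these members AT2G14460 is named, with 8.10 at 22 °C and 6.63, 6.32, 6.05 and 6.62 in the cold.

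Within the cold arrays, a trend of the starting level with cold duration was called for 0 members by limma, and for 0% of all probe sets, from 4 arrays. At an unadjusted p under 0.05 there were 8 members, 6 lower and 2 higher with longer cold, compared with 6.88% of all probe sets. When the starting level was read from the fitted lines instead, 29 members were called, 18 lower and 11 higher, which is 26.4% of the members and compares with 42.6% of all probe sets.

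The members formed the end of a graded relation. All probe sets above the minimum intensity were grouped by their change after 0.5 h at 22 °C, and the share that fell in the cold was counted in each group. It was 1.14% where the intensity was over 0.5 log2 units higher, 3.21% for a rise of up to 0.5 and 24.0% for a loss of up to 0.5. The share was 58.0% for a loss of 0.5 to 1, 88.2% for 1 to 1.5, 93.5% for 1.5 to 2 and 95.8% for 2 or more.

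The median mean cold slope followed the same order, from 0.0213 through 0.012, −0.00255, −0.0231, −0.0477 and −0.0712 to −0.119 log2 units per hour. The groups with a loss of 1.5 to 2 and of 2 or more thus had nearly the same share called but differed in slope. The median starting level did not follow that order, being 7.52, 8.40, 7.57, 7.21, 7.36, 7.70 and 8.36. The last group held 122 probe sets, the 118 that met the limits and 4 that had recovered by 4 h.

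**Figure D5:**
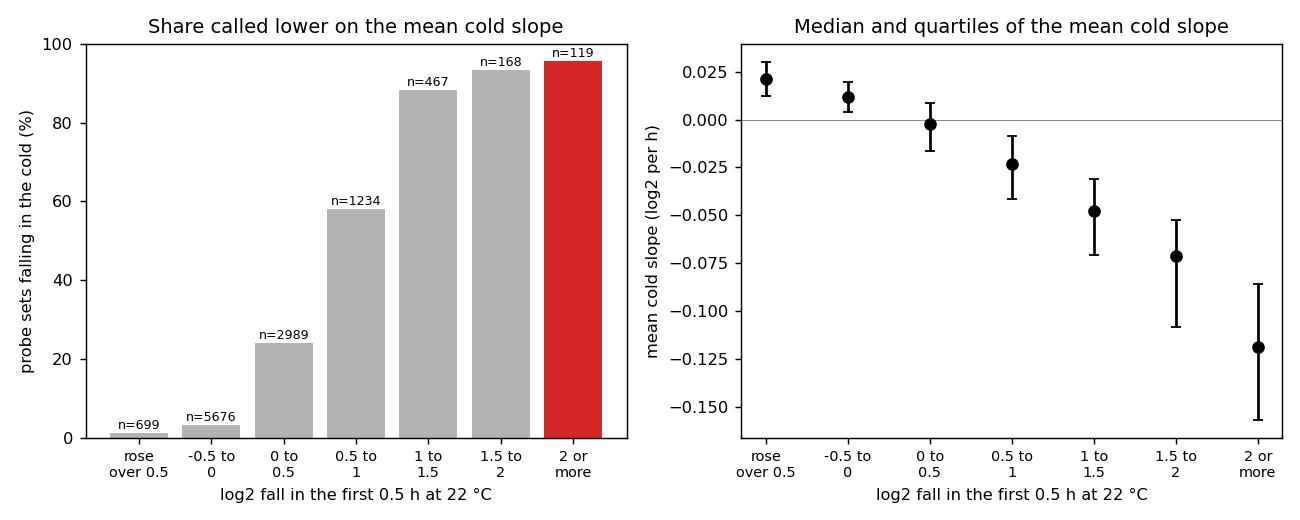
Share of probe sets called lower on the mean cold slope, and that slope (log2 units per hour, median and quartiles). Probe sets are grouped by their log2 fall after 0.5 h of cordycepin at 22 °C. The median slope goes from 0.0213 in the group that was over 0.5 log2 units higher at 0.5 h to −0.119 in the group that was lower by 2 or more.

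Gene families to which short-lived plant mRNAs often belong gave few members among the probe sets named for them, and the platform table names only some of their genes. Of 6 tested WRKY probe sets, 4 fell in the cold and 0 rose, with a median slope of −0.0476. WRKY53 fell with −0.188 ± 0.0230 (adjusted p by limma 5.52e-05) and WRKY6 with −0.0791 ± 0.0075, and both had missed the limit at 22 °C narrowly, with changes of −1.99 and −1.89. WRKY47 also fell, with the shallow slope of −0.0161. WRKY22 was the sole member, and of the 6 it alone was called by the F test.

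Of 9 tested ubiquitin ligases 6 fell and 2 rose, with a median of −0.0543. PUB22, a close relative of PUB23, fell with −0.124 ± 0.0099, though its change after 0.5 h at 22 °C was −0.81 compared with −2.22 for PUB23. PUB19 fell with −0.115, and its change at 22 °C was 0.22, but its log2 intensity of 5.02 in the control was below the minimum set for members, so that little loss could be measured there.

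Of 4 tested probe sets on the calcium-signalling list all 4 fell, with a median of −0.0754 and none of them a member. That list was matched on gene symbols and synonyms, and it does not hold AT2G41410 or other members with only a locus identifier. It therefore cannot show whether calcium-signalling genes are absent from the members. Of 7 tested probe sets for CCR4-associated deadenylases, which shorten poly(A) tails, 4 fell and 2 rose (median −0.0264). Of 26 other transcription factors 6 fell and 10 rose (median 0.00244), and of 19 cell wall enzymes 4 fell and 3 rose. The 5 tested probe sets of the defence list were all for exocyst subunits (SEC10, EXO84B, SEC15A, SEC15B and SEC5A). Of these 0 fell and 2 rose, which does not describe other defence proteins. Of 3 light and clock genes 1 fell and 2 rose. Both tested C2H2 zinc finger probe sets fell. They include STZ, which met the limits at 22 °C and is not a member only because it was left out by name. Of the AP2/ERF list, which does not hold AT5G61590, 1 of 2 fell, and of the auxin list 2 of 3. The list of kinases and phosphatases held 1 probe set, PIA1, which was not called, and no jasmonate ZIM-domain gene was named.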

How the data were processed

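Arrays were read from a table of intensity values deposited by the authors, on a linear scale, made with RMA in the affy package per the submitters' processing notes. Values were not normalised again and log2 was taken. The array medians ran from 50.3 to 68.6. Members were found by the stated limits and exclusions. Members and gene lists were chosen with earlier results of these data known. Genes were named from the platform table. The 20 arrays had 1 array per condition, so the spread in tests is the scatter about the fitted lines (8 residual degrees of freedom) and may be technical. limma 3.58.1 in R 4.3.3 fitted an intercept and a slope per cold series (lmFit, eBayes with trend) to probe sets at or above the table median of 61.4 on at least 2 of 16 cold arrays, with Benjamini-Hochberg adjustment over 12425 probe sets at 0.05. The level trend used the 4 cold arrays at 0 h. Fits were tested on simulated data. Genes named were the 12 with the largest change at 0.5 h, the 5 with the most and the 5 with the least negative mean cold slope, the 5 with the smallest F test p, the 5 brightest, up to 2 per list and 3 on each side of the limit. Alternatives were other filters, reference-gene centring and slopes anchored on the 95th percentile of their series. Others were omission of the 0 h arrays and of each array, and 1 probe set per gene. The number of arrays limits the precision. Sequences and promoter motifs were not analysed here.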

Additional observations from a re-analysis of the deposited data

Results flagged for a closer look

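The slopes of 21 members differed among the 4 cold series by limma's F test. Among the members named by rule these were AT1G52470 (adjusted p 0.00192), AT5G19120 (0.00192), AT2G04460 (0.00414), WRKY22 (0.0279) and AT5G24600 (0.0364). The series differ in cold duration and in time in culture, which cannot be told apart, and each value stands on 1 array.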

How the results depend on the processing

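On the mean cold slope 108 of 113 tested members fell with no filter, against 3372 of all 22810 probe sets. With a filter at the 60th percentile 82 of 87 fell, against 1579 of 9124. Without a variance trend 104 of 110 fell (2661 of 12425), and without the 0 h arrays 98 of 110 (2281 of 12425). Reference-gene centring gave 107 of 111 (3590 of 12424) and anchored slopes 110 of 110 (11775 of 12425). With any 1 array left out, 101 to 109 of 110 fell, against 2106 to 2750 of all 12425. Reference-gene centring was fitted for the same members, although the limits applied after centring would give 168 members, 111 of them shared. With only the brightest probe set of each named gene, 47 members remained and 44 were tested. Of these 42 fell on the mean slope (22.5% of all probe sets). In the 6, 12, 24 and 36 h series 29, 37, 31 and 36 fell, against 774, 1052, 629 and 488 of all 6695 probe sets. In the 6 h series 1 member rose, against 709 of all. The F test called 6 of the 44, close to the 13.7% of all probe sets. Fewer probe sets enter that alternative. Anchored slopes gave a median of −0.164 (−0.0418 over all probe sets), 1 member that rose in the 6 h series, 35 that differed by the F test and 11 with a slope trend, while 94.8% of all probe sets fell on the mean slope. Without the 0 h arrays the F test called 0 members and 0 of all 12425 probe sets, and the cause was not tested. Starting levels read from the fitted lines gave 29 members with a level trend. Leaving out 1 array at a time, the members that fell numbered 41 to 75, 23 to 103, 7 to 74 and 2 to 97 in the 4 series. Those that rose in the 6 h series numbered 0 to 7, those that differed by the F test 12 to 35, those with a slope trend 0 to 1 and those with a level trend 0 to 0, and the median slope was −0.123 to −0.112. Of the named members' results, 543 kept their side of the threshold, 13 lost the call (AT2G07741 and nad9), 12 gained one and 0 reversed. No paired analysis was possible because each condition has 1 array.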
